A study of Mus musculus with 2 samples.

Results

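The genes described here are 10 myeloid C-type lectin receptors other than the one that was deleted: Clec4d, Clec4e, Clec4n, Clec4a1, Clec4a2, Clec4a3, Clec12a, Clec10a, Olr1 and Clec2d. They were taken as a named list, and all 10 were among the 32285 genes of both libraries. The cells came from colorectal polyps of C57BL6/J mice, 26 weeks old by the labels, that had received the carcinogen azoxymethane (AOM) and then 3 cycles of 1% dextran sodium sulfate (DSS), and they were collected 16 weeks after AOM. One group was wild-type (WT). The other, Clec7a_KO, was Clec7a-/-, without Dectin-1, the receptor for fungal beta-glucans. Both groups had received AOM and DSS, and no untreated group was analysed here. Cells stained for CD11b and CD11c were sorted, and the cells of several mice of each genotype were pooled into 1 library, so the effect of genotype and a difference between 2 library preparations cannot be told apart. Values are given without p-values, and each interval is a 95% interval that covers counting error alone, not the spread among mice.

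C-type lectin receptors are surface proteins of myeloid cells that bind carbohydrates, lipids or products of dying cells. Clec4d (MCL), Clec4e (Mincle) and Clec4n (Dectin-2) lack a signalling motif of their own, pair with the Fc receptor gamma chain encoded by Fcer1g, and activate the kinase Syk and the adaptor Card9, the route that Dectin-1 also uses. Clec4a2 (DCIR) and Clec12a carry inhibitory motifs that recruit phosphatases such as the one encoded by Ptpn6, Clec10a takes up galactose-bearing glycoproteins, Olr1 (LOX-1) takes up oxidized lipoprotein, and Clec2d is a ligand of an inhibitory receptor of natural killer cells.

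Of the 10 genes, 9 lie on chromosome 6 of GRCm38, the build that the submitters' notes call mm10. The 6 Clec4 genes lie within 368 kb, from 122921848 to 123289870, with Clec4d (ENSMUSG00000030144) at 123262111 to 123275265 on the plus strand next to Clec4e (ENSMUSG00000030142) at 123281789 to 123289870 on the minus strand. Clec4n (ENSMUSG00000023349) lies at 123229843 to 123247021, Clec4a1 (ENSMUSG00000049037) at 122921848 to 122934619, Clec4a3 (ENSMUSG00000043832) at 122952515 to 122969875 and Clec4a2 (ENSMUSG00000030148) at 123106428 to 123143999. A second group lies 5891 kb further on, with Clec2d (ENSMUSG00000030157) at 129180615 to 129186534, Clec12a (ENSMUSG00000053063) at 129342691 to 129365303 and Olr1 (ENSMUSG00000030162) at 129485244 to 129507165. Clec10a (ENSMUSG00000000318) is on chromosome 11 at 70156197 to 70170834. Among the 32158 genes of the libraries that have an annotated position, none overlaps any of the 10. Reads of the closely related Clec4a1, Clec4a2 and Clec4a3 may be split among them, so the values of these 3 are uncertain.

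The promoters of the genes that the results turn on are given first, because Clec4d and Clec4e are neighbours whose levels over the clusters were the most alike of the 10, while Clec4a1 was highest in another class. Each is the RefSeq sequence of GRCm38.p6 from 250 bases before to 50 bases after the transcript start, 5′ to 3′ on the strand of the gene. Capitals mark matches, on either strand, to short motifs: GAGGAA of PU.1, TTGCNNAA of C/EBP factors and the ETS-IRF composite, GGAA and GAAA with 2 free bases between them, whose GGAA can overlap GAGGAA. Clec4d is chr6:123261857-123262156, Clec4e is chr6:123289822-123290121 on the minus strand, and Clec4a1 is chr6:122921598-122921897.
Clec4d: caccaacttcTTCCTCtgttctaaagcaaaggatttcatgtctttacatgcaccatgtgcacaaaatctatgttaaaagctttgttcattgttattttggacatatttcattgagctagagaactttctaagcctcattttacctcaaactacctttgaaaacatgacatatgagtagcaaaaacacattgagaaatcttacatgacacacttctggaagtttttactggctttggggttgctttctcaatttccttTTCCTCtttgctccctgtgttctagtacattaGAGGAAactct
Clec4e: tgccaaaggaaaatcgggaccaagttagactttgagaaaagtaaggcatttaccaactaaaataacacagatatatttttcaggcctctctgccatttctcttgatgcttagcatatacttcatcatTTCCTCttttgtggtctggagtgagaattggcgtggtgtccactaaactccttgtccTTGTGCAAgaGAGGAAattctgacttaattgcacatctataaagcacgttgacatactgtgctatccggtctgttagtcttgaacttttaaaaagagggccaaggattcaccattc
Clec4a1: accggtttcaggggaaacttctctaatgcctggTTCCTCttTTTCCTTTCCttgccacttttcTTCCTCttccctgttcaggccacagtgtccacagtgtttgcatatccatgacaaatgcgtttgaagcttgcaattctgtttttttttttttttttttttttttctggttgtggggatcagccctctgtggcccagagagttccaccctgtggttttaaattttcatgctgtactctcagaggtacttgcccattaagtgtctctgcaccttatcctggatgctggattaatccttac
PU.1 and C/EBP factors are transcription factors of the myeloid lineage. The table of promoters held 8 of the 10 genes with 9 promoters, and Clec4n and Clec10a were named only. GAGGAA or its complement was found in 6 of the 9 promoters, those of Clec4a1, Clec4a3, Clec4d, Clec4e, Clec12a and Olr1, against 28.3% of 32851 promoters. TTGCNNAA was found in those of Clec4e and Clec12a, against 10.8% of all, and the ETS-IRF composite in that of Clec4a1, against 2.72% of all. The AP-1 motif TGANTCA was found in those of Clec4a2, Clec12a and Olr1, against 7.81% of all, and the NF-kB motif, GGGA and TTCC with 2 free bases between them, in 0 of the 9, against 1.47% of all. In Clec4a1 the ETS-IRF match lies between both GAGGAA matches without overlap. These matches describe letters in a window and not binding.

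The WT library held 15869215 unique molecular identifiers (UMIs, each standing for 1 captured transcript copy) in 3467 barcodes and the Clec7a-/- library 11808230 in 3080 barcodes, and 17 barcodes occurred in both. The limits on detected genes (200 to 4000) and mitochondrial UMIs (5%) kept 2696 WT cells, with a median of 3412.5 UMIs, and 1999 Clec7a-/- cells, with a median of 2671. Of these cells, 83.4% (81.9 to 84.8) of the WT and 69.1% (67.1 to 71.2) of the Clec7a-/- cells held a UMI of Itgam or Itgax, the genes of CD11b and CD11c. T-cell-like cells, which a CD11b and CD11c gate should leave out, were 2.49% (1.93 to 3.15) and 6.05% (5.05 to 7.19).

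Clustering without the 10 genes gave 15 clusters, and 9 classes, named from marker genes or left unnamed, are described beside the T-cell-like cells. Granule-rich neutrophil-like cells, led by Retnlg, S100a8 and Lcn2, numbered 497 in WT and 89 in the Clec7a-/- library, a share of 18.4% (17.0 to 20.0) and 4.45% (3.59 to 5.45) of all cells kept. Granule-poor neutrophil-like cells, with Csf3r among the leading genes, were 178 and 314 cells, or 6.60% (5.69 to 7.61) and 15.7% (14.1 to 17.4), with medians of only 1132 and 908 UMIs. A cluster with transcripts of both neutrophils and monocytes, among them S100a9 and Chil3, was left unnamed with 264 and 67 cells. The others were monocyte-like cells (412 and 267), a transitional-like class with Ccl24, Mmp19, Sdc1 and Arg1 (334 and 224), macrophage-like cells (526 and 296), type 1 dendritic-cell-like (DC-like) cells with Xcr1 (82 and 161), mature DC-like cells with Ccr7 and Fscn1 (147 and 247), and cluster 8, which S100a4, Wnt11 and Klrd1 led and which was left unnamed (131 and 154).

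Over all cells, the transcripts of the receptors that pair with the gamma chain were lower in the Clec7a-/- library, Clec4e by slightly more and Clec4d by slightly less than 2-fold. The level is given as CPM, the UMIs of a gene divided by the total of those cells and scaled to 1000000. Clec4e was at 996 (979 to 1014) CPM in WT, with 12239 UMIs, and at 479 (463 to 494) CPM in Clec7a-/- cells, with 3618 UMIs. Clec4d was at 1869 (1845 to 1894) and 977 (955 to 1000) CPM, and Clec4n at 886 (869 to 903) and 665 (646 to 683) CPM. The log2 ratios of Clec7a-/- to WT were −1.06 (−1.11 to −1.004) for Clec4e, −0.94 (−0.97 to −0.90) for Clec4d and −0.41 (−0.46 to −0.37) for Clec4n. The intervals of the libraries did not overlap for any of these 3 genes, and the intervals of their ratios lay under 0. Of all 8470 genes with at least 100 UMIs, 17.4% had a ratio interval under 0 and 35.9% had one over 0.

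A gene was counted as past 2-fold only where it had at least 100 UMIs over both libraries, which all 10 receptors had. By this rule 1 of the 10, Clec4e, was more than 2-fold lower and 0 were more than 2-fold higher, whereas 1.74% of all 8470 genes tested were more than 2-fold lower and 4.16% past 2-fold in either direction. The median log2 ratio was −0.098 over the 10 receptors and 0.13 over all genes. With TMM scaling, which moved every log2 ratio by −0.17, Clec4d also passed 2-fold, at −1.10. With each cell given the same weight neither passed, at −0.47 for Clec4d and −0.69 for Clec4e.

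The other receptors moved less or had fewer UMIs. Olr1 had 303 UMIs in WT and 108 in Clec7a-/- cells, 24.7 (22.0 to 27.6) and 14.3 (11.7 to 17.2) CPM and a log2 ratio of −0.79 (−1.12 to −0.47). Clec12a had 203 and 184 UMIs, 16.5 (14.3 to 19.0) and 24.3 (20.95 to 28.1) CPM and a log2 ratio of 0.56 (0.26 to 0.85), and was the only one of the 10 that was higher beyond counting error, beside 35.9% of all genes. Clec10a had 123 and 64 UMIs and a log2 ratio of −0.24 (−0.70 to 0.21). For Clec4a1, Clec4a2, Clec4a3 and Clec2d the log2 ratios of 0.14 (−0.02 to 0.31), 0.05 (−0.07 to 0.16), 0.20 (−0.09 to 0.48) and 0.09 (−0.09 to 0.28) all had intervals that held 0, so 4 of the 10 were lower beyond counting error, beside 17.4% of all genes, and TMM scaling turned the sign of 3 of them, Clec4a3 being the exception. In pooled libraries, fewer cells of a class and less RNA per cell cannot be told apart in such a sum over all cells, so the classes were compared next.

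The levels of each gene in the classes differed far more than its levels between the libraries. Clec4d was highest in granule-rich neutrophil-like cells of both libraries, at 6009.8 (5887 to 6135) CPM in WT and at 5620.5 (5261 to 5998) CPM in Clec7a-/- cells. In WT cells it was lower in steps with intervals apart from each other in the cluster with neutrophil and monocyte transcripts (3855), granule-poor neutrophil-like (2987), monocyte-like (2379.7), transitional-like (1600.3) and macrophage-like cells (631). The same order held in Clec7a-/- cells, except that granule-poor neutrophil-like cells, at 4935 CPM, stood second. T-cell-like cells, which should lack the gene, were at 434 (342 to 543) CPM in WT and at 426 (347 to 517) CPM in Clec7a-/- cells. Cluster 8, at 330 (279 to 387) and 262 (221 to 309) CPM, and both DC-like classes lay at or under that level. Of the T-cell-like cells, 22.4% (13.1 to 34.2) in WT and 20.7% (13.8 to 28.97) in the Clec7a-/- library held a UMI of Itgam or Itgax, and cells called as doublets were left in, so the part of free RNA or of doublets in these levels was not tested.

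**Figure D1:**
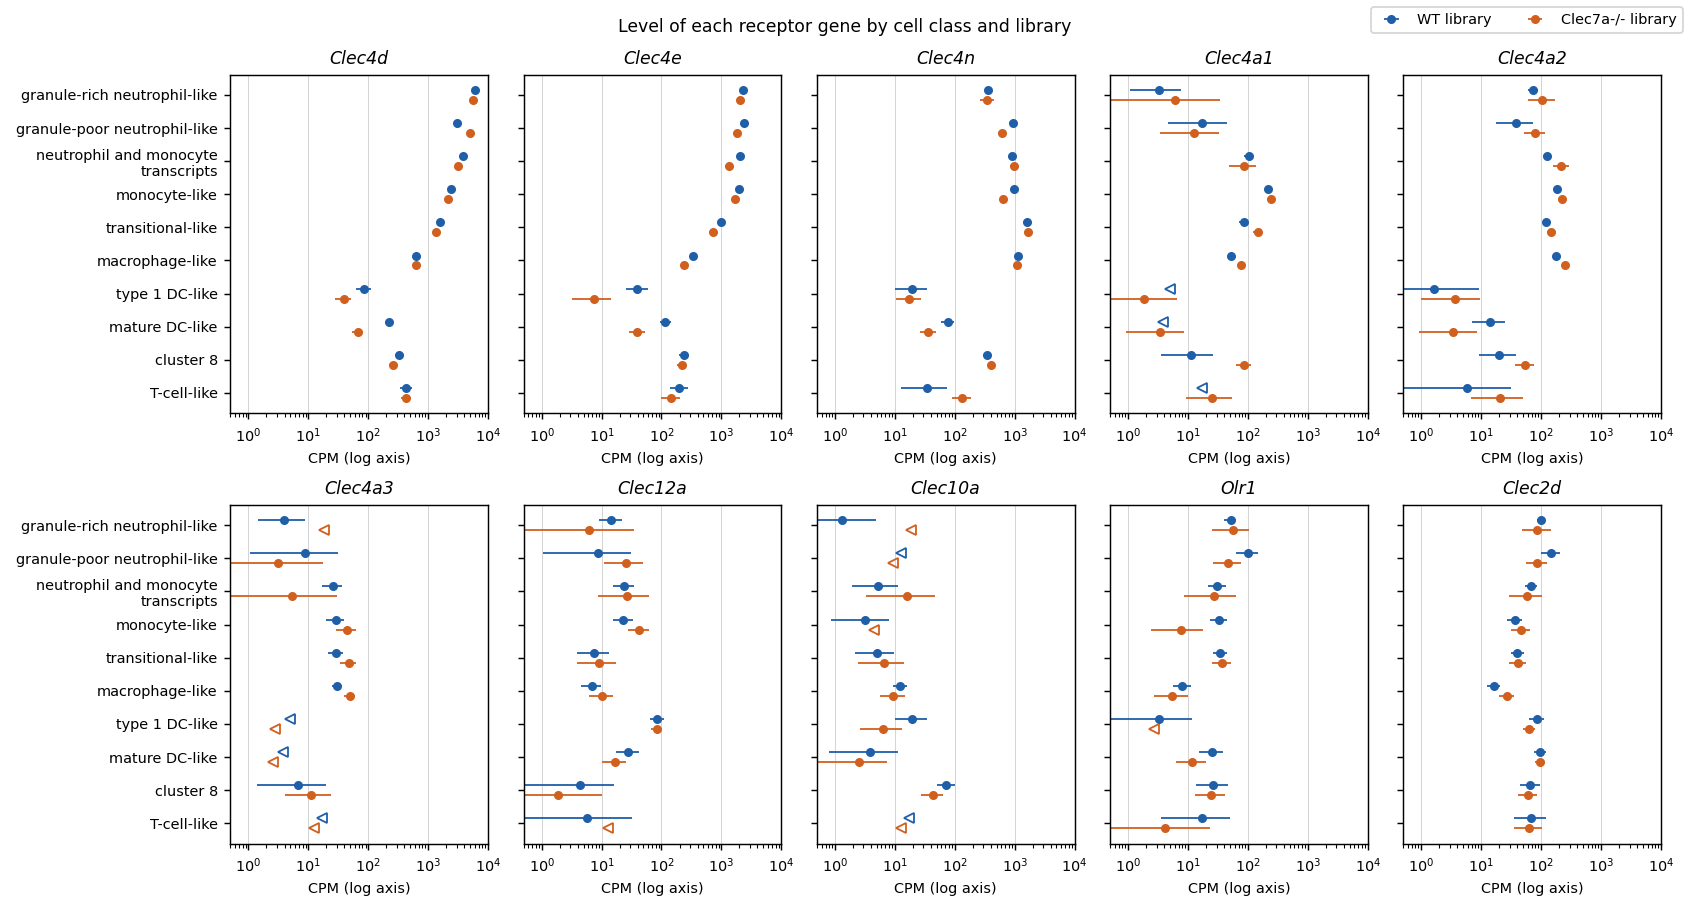
Level of each of the 10 receptor genes in 9 cell classes and in T-cell-like cells. The x axis is CPM on a log scale, points are libraries (blue WT, orange Clec7a-/-), bars are 95% intervals for counting error cut at the left edge, and open triangles mark the level that 3 UMIs would give where no UMI was counted. Clec4d and Clec4e are highest in neutrophil-like cells, Clec4n in transitional-like cells, Clec4a1 in monocyte-like cells, Clec12a in type 1 DC-like cells and Clec10a in cluster 8.

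Clec4e spread more evenly over neutrophils and monocytes than Clec4d. In WT cells the levels were 2429 (2232 to 2638) CPM in granule-poor and 2327 (2251 to 2405) CPM in granule-rich neutrophil-like cells, whose intervals overlapped. The monocyte-like level of 1940.5 (1864 to 2019) CPM was close behind and its interval overlapped that of the cluster with neutrophil and monocyte transcripts, at 2073 (1990.0 to 2158) CPM. Transitional-like cells had 982 (934 to 1032) and macrophage-like cells 337 (320.1 to 355) CPM. The T-cell-like level was 199.9 (139 to 278) CPM in WT and at 143 (99.2 to 200.2) CPM in Clec7a-/- cells, which the levels of both DC-like classes did not exceed. In Clec7a-/- cells the macrophage-like level of 241 CPM was not apart from the 221 CPM of cluster 8.

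Clec4n had another order, with macrophages above neutrophils. It was highest in transitional-like cells, at 1642 (1579 to 1706) CPM in WT and at 1675.5 (1592 to 1762) CPM in Clec7a-/- cells, followed by macrophage-like cells at 1159 (1126 to 1192) and 1117 (1071 to 1164) CPM. Granule-rich neutrophil-like cells, where Clec4d was highest, had 362 (333 to 394) and 345.5 (261 to 449) CPM. In cluster 8 Clec4n was at 349.7 (297 to 409) and 400.04 (348 to 457) CPM, above the T-cell-like levels of 34.3 (12.6 to 74.6) and 131 (88.8 to 185) CPM. Macrophage-like cells held 44.9% of all Clec4n UMIs in WT and 44.3% in Clec7a-/- cells, against 11.6% and 16.7% of the Clec4d UMIs.

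The genes of the Clec4a group were highest in monocyte-like and macrophage-like cells and nearly absent from granule-rich neutrophil-like cells, apart from Clec4a2. Clec4a1 was highest in monocyte-like cells, at 218 (193 to 246) CPM in WT and at 242 (206 to 283) CPM in Clec7a-/- cells, and had 5 and 1 UMIs in granule-rich neutrophil-like cells. Clec4a2 was at 179.9 (167 to 193) and 256 (234 to 279) CPM in macrophage-like cells and at 188 (165 to 214) and 227 (192 to 266) CPM in monocyte-like cells, and these classes overlapped in both libraries. Clec4a3 was low throughout, at 30.1 (25.1 to 35.9) and 49.2 (39.9 to 59.9) CPM in macrophage-like cells, not apart from transitional-like and monocyte-like cells. In T-cell-like cells these 3 genes had between 0 and 6 UMIs.

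Clec12a was highest in type 1 DC-like cells, at 85.6 (63.9 to 112) CPM in WT and at 84.6 (68.2 to 104) CPM in Clec7a-/- cells, apart from the class next in order in both libraries. That class held 25.6% (19.8 to 32.2) of the Clec12a UMIs in WT and 50% (42.6 to 57.4) in Clec7a-/- cells. Clec10a was highest in cluster 8, at 73.0 (50.3 to 103) and 42.8 (27.1 to 64.2) CPM, from only 33 and 23 UMIs, and in Clec7a-/- cells its interval overlapped that of the next class. Olr1 was highest in neutrophil-like cells, at 99.4 (63.0 to 149) CPM in granule-poor WT cells and 55.5 (25.4 to 105) CPM in granule-rich Clec7a-/- cells, and the neighbours in its order overlapped in both libraries. Clec2d was found in all 9 classes, in WT from 16.4 (12.7 to 20.7) CPM in macrophage-like to 147 (102 to 205) CPM in granule-poor neutrophil-like cells, and T-cell-like cells, at 68.5 (35.4 to 120) CPM, lay within that range. In mature DC-like cells it was at 96.5 and 97.7 CPM.

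With WT levels in every class, the Clec7a-/- mix of classes alone gave a lower level of both Clec4d and Clec4e. Granule-rich and granule-poor neutrophil-like cells and the cluster with neutrophil and monocyte transcripts held 61.8% (61.2 to 62.4) of the Clec4d UMIs in WT and 41.5% (40.4 to 42.6) in Clec7a-/- cells, and 23.5% and 8.79% of the UMIs of all genes. When the WT level of each class was combined with the share of UMIs that the class had in the Clec7a-/- library, the log2 ratio to WT was −0.88 for Clec4d and −0.64 for Clec4e. When instead the Clec7a-/- levels were combined with the WT mix, it was −0.12 for Clec4d and −0.38 for Clec4e. This calculation was chosen after the data were seen.

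**Figure D2:**
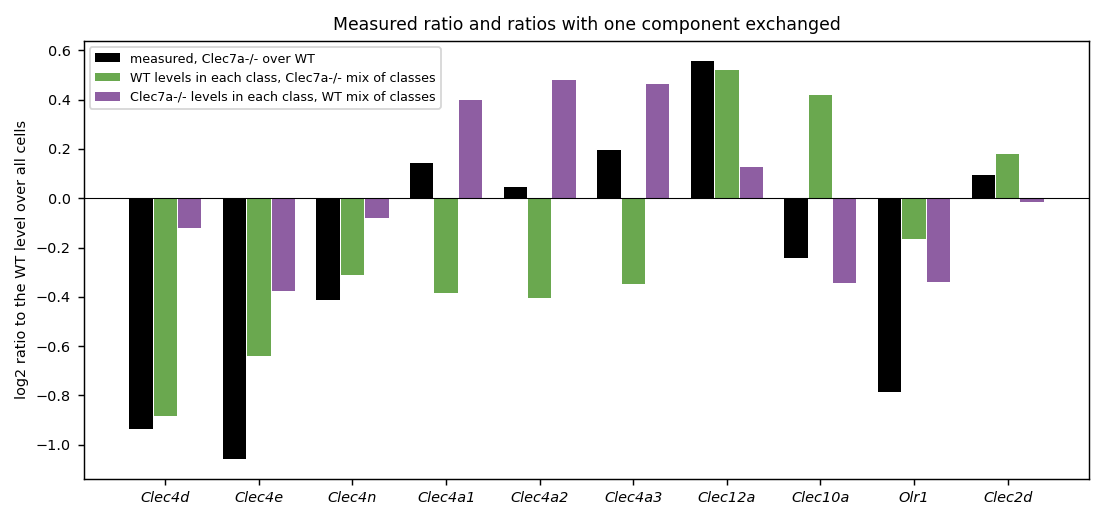
Log2 ratio to the WT level over all cells for each receptor gene as measured (black), with WT levels in each class and the Clec7a-/- mix of classes (green), and with Clec7a-/- levels and the WT mix (purple). The green bar of Clec4d, at −0.88, is close to the black one, at −0.94. Green and purple bars point in opposite directions for Clec4a1, Clec4a2, Clec4a3, Clec10a and, with a purple bar of −0.015, Clec2d.

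For the Clec4a group, Clec10a and Clec2d the same calculation gave components of opposite sign. For Clec10a the mix gave 0.42 and the levels −0.34, and for Clec2d the mix gave 0.18 and the levels −0.015. The Clec7a-/- mix with WT levels gave −0.38, −0.41 and −0.35 for Clec4a1, Clec4a2 and Clec4a3, and Clec7a-/- levels with the WT mix gave 0.40, 0.48 and 0.46. For Clec12a the mix alone gave 0.52 and the levels alone 0.13, beside the measured 0.56. For Olr1 the mix gave −0.17 and the levels −0.34, beside the measured −0.79. The components need not add up to the measured ratio, because the levels can be weighted by either mix. With the Clec7a-/- mix in both libraries, the levels gave −0.62 for Olr1, −0.05 for Clec4d and −0.42 for Clec4e.

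**Figure D3:**
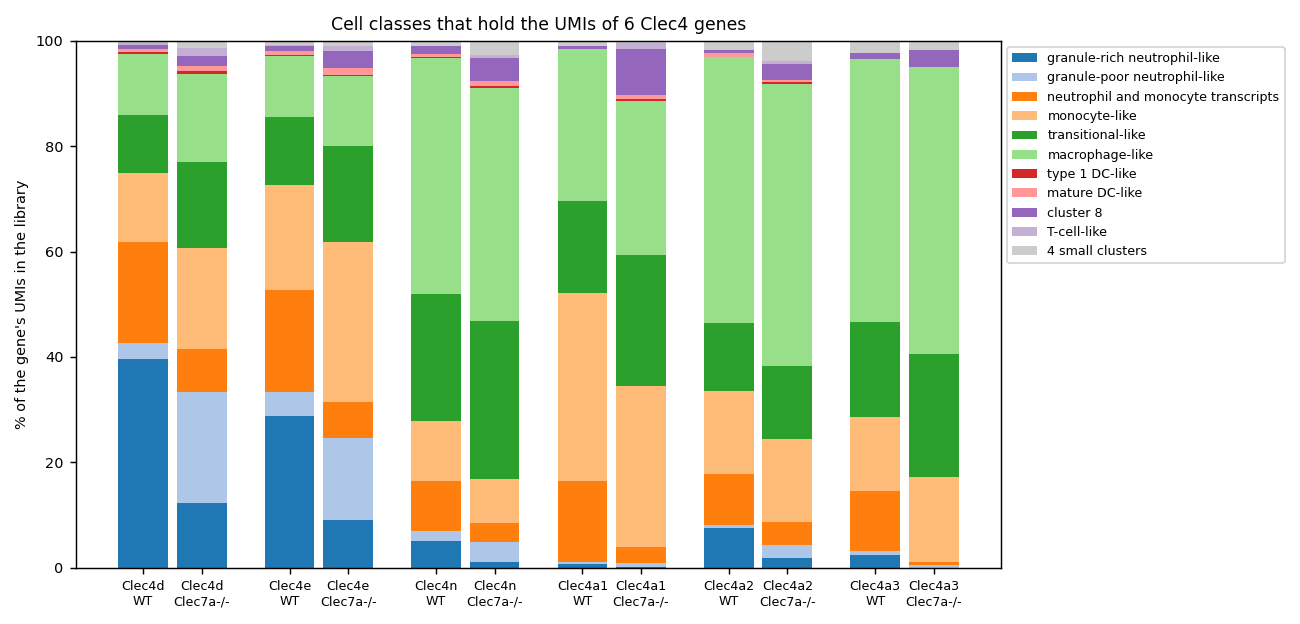
Share of the UMIs of 6 Clec4 genes that each cell class held, as stacked bars that add to 100% for each gene and library. Granule-rich neutrophil-like cells held 39.6% of the Clec4d UMIs in WT and 12.3% in Clec7a-/- cells, and granule-poor ones 3.01% and 21.1%.

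Within classes, Clec4e was lower in the Clec7a-/- library in all 6 classes of neutrophils, monocytes and macrophages. The log2 ratios were −0.21 (−0.38 to −0.05) in granule-rich and −0.44 (−0.61 to −0.27) in granule-poor neutrophil-like cells, −0.64 (−0.84 to −0.45) in the cluster with neutrophil and monocyte transcripts, −0.23 (−0.33 to −0.12) in monocyte-like, −0.42 (−0.56 to −0.29) in transitional-like and −0.49 (−0.64 to −0.34) in macrophage-like cells. Each interval lay under 0, and 5 of the 6 ratios kept their sign in the alternatives tried. The exception was granule-poor neutrophil-like cells, where TMM scaling, which moved every ratio there by 0.53, gave 0.087. None of the 6 was past 2-fold. In T-cell-like cells, which should lack the gene, the log2 ratio was −0.48 (−1.21 to 0.24), from 35 and 34 UMIs. The part of free RNA or of doublets in the ratios of the 6 classes was not tested. Counted over the 9 classes together, 12.8% of 23617 pairs of a gene and a class with at least 100 UMIs had an interval under 0 and 13.4% had one over 0.

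Clec4d was lower beyond counting error in 3 of these 6 classes and higher in 1. In granule-rich neutrophil-like cells, where it was highest, its log2 ratio was −0.10 (−0.20 to 0.00), and in macrophage-like cells it was −0.02 (−0.12 to 0.07). It was lower in the cluster with neutrophil and monocyte transcripts (−0.27), in monocyte-like (−0.15) and in transitional-like cells (−0.26), with intervals under 0, although the last turned sign in 2 of 10 alternatives. In granule-poor neutrophil-like cells it was higher, 691 UMIs and 2987 (2768 to 3218) CPM in WT against 1558 UMIs and 4935 (4693 to 5186) CPM in Clec7a-/- cells and a log2 ratio of 0.72 (0.59 to 0.86). That ratio was 0.36 with integration by reciprocal PCA and 1.25 with TMM scaling. In this shallow class 23.1% of 919 genes tested were past 2-fold in either direction.

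**Figure D4:**
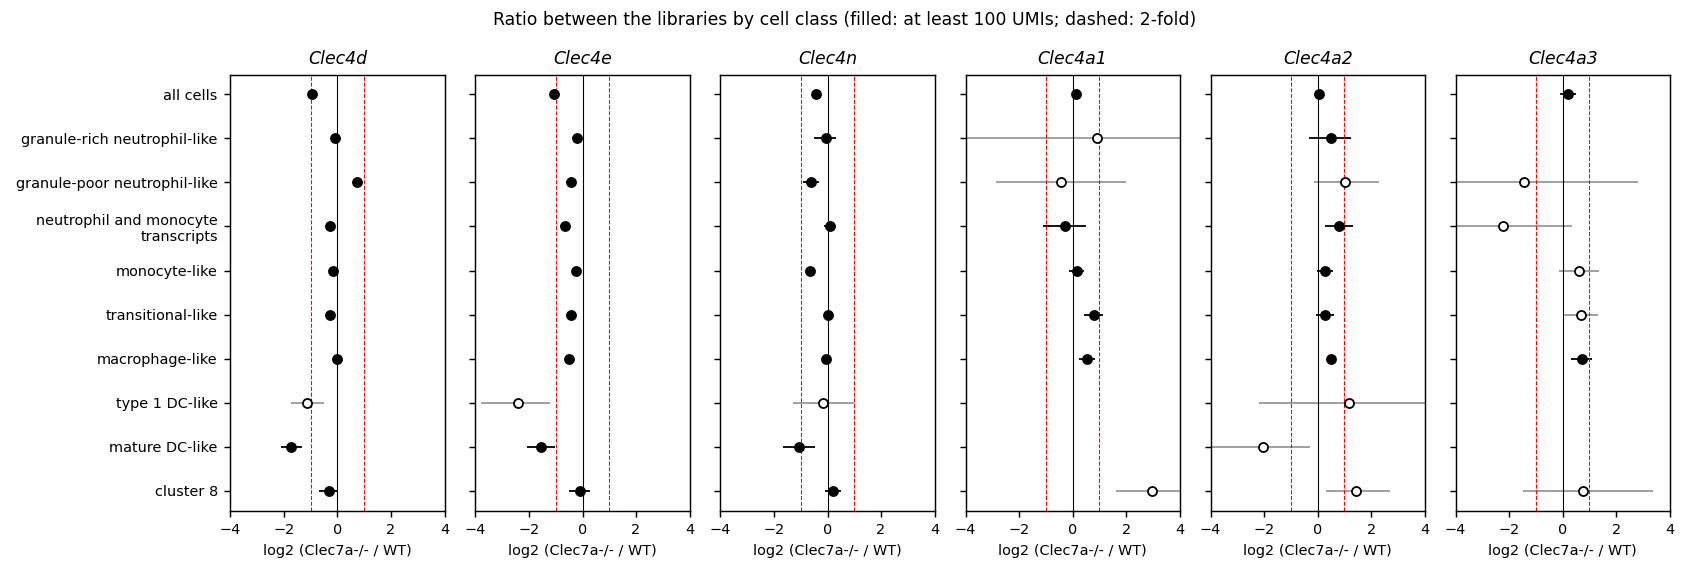
Log2 ratio of the Clec7a-/- to the WT level for 6 Clec4 genes over all cells and in 9 cell classes. Bars are 95% intervals for counting error, filled points have at least 100 UMIs over both libraries, open points fewer, dashed lines mark 2-fold, and a class without UMIs in one library has no point. Clec4e lies under 0 in the 6 upper classes, whereas Clec4d is at 0.72 in granule-poor neutrophil-like cells.

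Because both genes are read in the same cells, the number of Clec4d UMIs per Clec4e UMI does not depend on the scaling. In granule-poor neutrophil-like cells it was 1.23 (1.10 to 1.38) in WT and 2.75 (2.50 to 3.04) in Clec7a-/- cells. The latter was close to the 2.58 (2.48 to 2.69) and 2.79 (2.46 to 3.18) of granule-rich cells. It was also higher in Clec7a-/- cells in the cluster with neutrophil and monocyte transcripts, 1.86 (1.77 to 1.96) against 2.40 (2.07 to 2.80), and in macrophage-like cells, 1.87 (1.75 to 1.996) against 2.58 (2.32 to 2.87). In monocyte-like cells it was 1.23 (1.16 to 1.29) and 1.29 (1.19 to 1.40), with overlapping intervals. In T-cell-like cells it was 2.17 (1.44 to 3.34) and 2.97 (1.996 to 4.52).

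**Figure D5:**
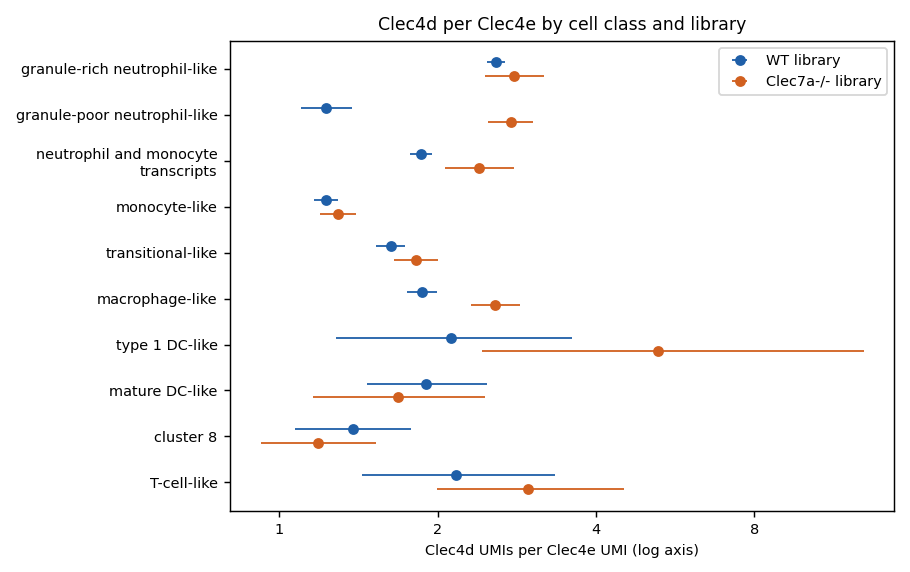
Clec4d UMIs per Clec4e UMI, on a log axis, in 9 cell classes and T-cell-like cells, with 95% intervals for counting error (blue WT, orange Clec7a-/-). The libraries are apart in granule-poor neutrophil-like cells, at 1.23 and 2.75, and overlap in granule-rich neutrophil-like and monocyte-like cells.

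Clec4n was lower in Clec7a-/- monocyte-like cells, 1242 UMIs and 987 (932 to 1043) CPM in WT against 418 UMIs and 632 (573 to 696) CPM and a log2 ratio of −0.64 (−0.81 to −0.48). It was also lower in granule-poor neutrophil-like cells, with a log2 ratio of −0.63 (−0.91 to −0.34) that TMM scaling moved to −0.10. In the classes where it was highest no difference was detectable, with log2 ratios of 0.03 (−0.06 to 0.12) in transitional-like and −0.05 (−0.13 to 0.02) in macrophage-like cells.

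The Clec4a genes were higher in Clec7a-/- macrophage-like cells. Clec4a1 was at 52.9 (46.2 to 60.3) CPM in WT and at 76.7 (65.1 to 89.9) CPM in Clec7a-/- cells, Clec4a2 at 179.9 and 256 CPM, and Clec4a3 at 30.1 and 49.2 CPM, with log2 ratios of 0.54 (0.23 to 0.84), 0.51 (0.34 to 0.67) and 0.71 (0.31 to 1.10). Clec4a1 was also higher in transitional-like cells, 84.8 (71.1 to 100.3) against 146 (122 to 173) CPM with a log2 ratio of 0.78 (0.43 to 1.14), and Clec4a2 in the cluster with neutrophil and monocyte transcripts, with a log2 ratio of 0.80 (0.26 to 1.31). In monocyte-like cells, where Clec4a1 was highest, its log2 ratio of 0.15 (−0.14 to 0.43) had an interval that held 0. In cluster 8, Clec4a1 had 5 UMIs in WT and 46 in Clec7a-/- cells, too few for the limit of 100. The 5 ratios of the Clec4a genes that were higher with at least 100 UMIs kept their sign in all 10 alternatives.

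Clec12a in its highest class did not differ detectably, with 52 and 92 UMIs in type 1 DC-like cells and a log2 ratio of −0.02 (−0.52 to 0.50). In monocyte-like cells it had 29 and 28 UMIs, 23.0 (15.4 to 33.1) and 42.4 (28.1 to 61.2) CPM and a log2 ratio of 0.88 (0.08 to 1.68) under the limit of 100 UMIs. Olr1 had 41 and 5 UMIs in monocyte-like cells, 32.6 (23.4 to 44.2) and 7.56 (2.46 to 17.6) CPM, and 23 and 15 UMIs in granule-poor neutrophil-like cells, 99.4 and 47.5 CPM. In granule-rich neutrophil-like cells Olr1 had 78 and 9 UMIs at 51.6 and 55.5 CPM, so the lower count there went with fewer UMIs in all. Clec2d was higher in Clec7a-/- macrophage-like cells, 16.4 against 26.6 (19.9 to 34.8) CPM with a log2 ratio of 0.70 (0.15 to 1.24). Clec10a had fewer than 100 UMIs in every class.

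Of 90 pairs of a receptor and a class, 40 had at least 100 UMIs. Of these, 14 were lower and 7 higher in the Clec7a-/- library beyond counting error. The shares over all such pairs of genes and classes were 12.8% and 13.4%, not matched for depth. All 14 lower pairs were of Clec4d, Clec4e and Clec4n, the receptors with the most UMIs. Past 2-fold were 3 of the 40 pairs. All 3 were in mature DC-like cells, where 1.41% of all genes were past 2-fold. Clec4d was at 219.7 (188 to 255) CPM in WT and at 66.5 (52.7 to 82.9) CPM in Clec7a-/- cells there, Clec4e at 116 (93.0 to 142) and 39.6 (29.1 to 52.6) CPM, and Clec4n at 76.2 (58.1 to 98.1) and 36.2 (26.2 to 48.8) CPM. The log2 ratios were −1.72 (−2.13 to −1.33), −1.55 (−2.09 to −1.02) and −1.07 (−1.67 to −0.48). For Clec4d and Clec4e these levels were under the T-cell-like levels of the same library. In T-cell-like cells Clec4d was at 434 and 426 CPM in the libraries, and Clec4e at 199.9 and 143 CPM, whereas Clec4n was at 34.3 in WT and 131 in Clec7a-/- cells. By library, the top 5% of Scrublet doublet scores took in 9 of the 147 WT and 9 of the 247 Clec7a-/- cells here. These cells held 120 of the 173 Clec4d UMIs in WT and 41 of the 79 in Clec7a-/- cells. The doublet calls of the same Scrublet run were taken as not having worked, so whether these cells were doublets was not tested. Without them the log2 ratio was −1.13 (−1.77 to −0.50) for Clec4d, from 53 and 38 UMIs, −1.31 (−2.11 to −0.54) for Clec4e, from 38 and 24 UMIs, and 0.12 (−0.64 to 0.92) for Clec4n, so none of the 3 was past 2-fold with 100 UMIs. With at most 10% mitochondrial UMIs the ratios of Clec4d and Clec4e were −0.85 and −0.96.

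In the other classes 0 of the receptors tested were past 2-fold. This was 0 of 5 in granule-rich neutrophil-like cells, where 5.68% of all genes were past 2-fold, 0 of 3 in granule-poor ones, and 0 of 5 in the cluster with neutrophil and monocyte transcripts (3.26% of all genes). It was 0 of 5 in monocyte-like (1.25%), 0 of 6 in transitional-like (1.67%) and 0 of 7 in macrophage-like cells (0.762%). In type 1 DC-like cells (1.69%) and cluster 8 (1.94%) it was 0 of 2 and 0 of 3. With shares of this size, 0 among so few genes is near the background in every class.

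The share of cells with at least 1 UMI was also lower in the Clec7a-/- library for the 3 abundant genes. With each cell thinned to 1000 UMIs, which left out 186 WT and 307 Clec7a-/- cells, Clec4e was found in 53.1% (51.1 to 55.0) of WT and 35.1% (32.8 to 37.4) of Clec7a-/- cells, Clec4d in 65.8% (63.9 to 67.7) and 48.1% (45.7 to 50.5), and Clec4n in 44.5% (42.5 to 46.4) and 34.5% (32.2 to 36.8). Without thinning these were 71.1% and 49.4%, 81.0% and 64.2%, and 65.8% and 49.1%. Median depths before thinning were 3591.5 and 3304.5 UMIs. For the other 7 genes the intervals of the libraries overlapped. How many of all genes differ in this way was not counted, so these counts have no background to be set against.

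Within granule-rich neutrophil-like cells nearly every cell held Clec4d, 98.8% (97.4 to 99.6) in WT and 98.9% (93.8 to 99.97) in Clec7a-/- cells. In granule-poor ones it was 84.9% (76.6 to 91.1) and 98.5% (94.6 to 99.8), with intervals apart, from 106 and 130 cells deep enough. These were 106 of 178 WT and 130 of 314 Clec7a-/- cells. The thinned shares over all cells thus underrepresent this class, more so in the Clec7a-/- library. The share with Clec4e was 66.0% (56.2 to 75.0) and 70.8% (62.2 to 78.4) in the same cells. T-cell-like cells held Clec4d in 32.1% (20.3 to 46.0) and 16.5% (9.53 to 25.7) and Clec4e in 12.5% (5.18 to 24.1) and 10.99% (5.40 to 19.3), with median depths of 2284.5 and 1823 UMIs. Macrophage-like cells, at 39.6% (35.3 to 44.0) and 45.5% (39.5 to 51.6) for Clec4d, overlapped the T-cell-like share in WT and exceeded it in Clec7a-/- cells.

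Cells thinned as above were also used to compare Clec4d between cells with and without a Clec4e UMI. Thinning can drop all Clec4e UMIs of a cell, so cells counted here as without Clec4e may have held it before thinning. In macrophage-like WT cells, Clec4d was found in 53.4% (44.0 to 62.8) of the 116 cells with a Clec4e UMI after thinning. Among the 384 cells without a Clec4e UMI after thinning, the share was 35.4% (30.6 to 40.4). In Clec7a-/- cells the shares were 46.0% (33.4 to 59.1) of 63 and 45.3% (38.5 to 52.3) of 214 cells, with overlapping intervals. In monocyte-like WT cells they were 89.6% (85.5 to 92.9) of 288 and 77.6% (68.0 to 85.4) of 98, just apart, and in Clec7a-/- cells 78.7% (71.9 to 84.6) of 174 and 82.6% (71.6 to 90.7) of 69. In transitional-like cells the intervals overlapped in both libraries. The shares there were 74.4% (67.2 to 80.8) and 62.3% (53.9 to 70.2) in WT, and 74.5% (64.9 to 82.6) and 68.7% (59.4 to 77.0) in Clec7a-/- cells. The intervals also overlapped in the neutrophil-like classes and the cluster with neutrophil and monocyte transcripts.

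Of 34 other C-type lectin genes listed, 13 had at least 100 UMIs over all cells, of which 2 were past 2-fold lower and 1 higher, beside 4.16% of all genes in either direction, with a median log2 ratio of −0.21 against 0.13 over all genes. Clec12b, an inhibitory receptor, was lower, with 204 UMIs in WT and 19 in Clec7a-/- cells and a log2 ratio of −2.72 (−3.49 to −2.04). Klrb1b, which encodes the receptor of natural killer cells that binds the product of Clec2d, was lower with 325 and 35 UMIs and a log2 ratio of −2.51 (−3.06 to −2.01). Ly75, the endocytic receptor DEC-205 of dendritic cells, was higher, 70.7 against 156 CPM with a log2 ratio of 1.14 (1.01 to 1.27). In macrophage-like cells Klrb1b was at 39.2 and 4.51 CPM with a log2 ratio of −3.12 (−4.27 to −2.16). Ly75 in mature DC-like cells was at 584 and 568 CPM with a log2 ratio of −0.04 (−0.21 to 0.13). In type 1 DC-like cells Ly75 was lower, at 461 and 347 CPM with a log2 ratio of −0.41 (−0.63 to −0.18). Clec9a, a receptor of type 1 dendritic cells for dead cells, was lower in type 1 DC-like cells with 73 and 43 UMIs and a log2 ratio of −1.60 (−2.18 to −1.04). Klrd1 was lower in cluster 8, with a log2 ratio of −1.16 (−1.73 to −0.61). Clec12b was past 2-fold lower in granule-rich neutrophil-like cells from 97 and 5 UMIs, with an interval that held 0. Over all cells the log2 ratio was −0.10 (−0.57 to 0.36) for Clec9a and 0.49 (0.19 to 0.79) for Klrd1. Clec12b, Klrb1b, Clec9a and Klrd1 lie on chromosome 6 within 500 kb of Clec2d. Whether any of their differences come with the locus of the deleted gene was not tested.

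Of 15 signalling partners listed, 14 had at least 100 UMIs over all cells and 0 were past 2-fold, beside 4.16% of all genes, which for 14 genes is near the background. Their median log2 ratio was −0.34. Fcer1g, the shared gamma chain, was at 2780.1 and 1922.5 CPM with a log2 ratio of −0.53 (−0.56 to −0.50), and Syk at 280.1 and 221 CPM with a log2 ratio of −0.34 (−0.42 to −0.25). Ptpn6, the phosphatase of inhibitory receptors, was at 101 and 133 CPM with a log2 ratio of 0.40 (0.27 to 0.52). Card9 had only 13 and 9 UMIs. Within classes, the median log2 ratio of the partners tested was −0.28 in mature DC-like cells and 0.18 in cluster 8. In the other classes it lay between −0.15 and −0.05. Within classes Fcer1g was past 2-fold in mature DC-like cells, 281 against 116 CPM with a log2 ratio of −1.27 (−1.59 to −0.96), where 1.41% of all genes were past 2-fold, and no other partner was past 2-fold in any of the 9 classes. This Fcer1g ratio was not computed without the cells of highest Scrublet score, which held most Clec4d UMIs of that class. Nor was it computed with the wider mitochondrial limit, so its dependence on either was not tested.

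The genes whose levels over the 15 clusters of both libraries together were most like each receptor were sought by Pearson's r of log2(CPM + 10), as a description over clusters that share libraries and depth. For Clec4d these were C3 (r = 0.97), Arg2 (0.97) and Cebpb (0.97), for Clec4e Il1rn (0.97), Gda (0.97) and C3 (0.96), and for Clec4n Ctsb (0.94), Zeb2os (0.94) and Acp2 (0.93). Clec4a1 was most like Arg1, Sdc1 and Fam129b (0.88 to 0.87), Clec4a2 like Ccl9, Csf1r and Tmem189 (0.97 to 0.95), and Clec4a3 like Msr1, Acp5 and Tgfbi (0.97 to 0.96). The likeness was lower for Clec12a, with Evi2, Slc22a21 and Arih2 (0.78 to 0.74), and for Clec10a, with Cyren, Mgl2 and Ciita (0.83 to 0.82). Olr1 was most like B430306N03Rik, Gm49041 and Dazap2 (0.93 to 0.92) and Clec2d like Nabp1, Sipa1l1 and Pak2 (0.90 to 0.87). Among the 10 receptors, Clec4d and Clec4e were the most alike (0.97), followed by Clec4a2 and Clec4a3 (0.90), which lie 137 kb apart. Clec4a1, only 17.9 kb from Clec4a3, was less like it (0.79).

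Neighbours on the chromosome were compared in the same way. Within 500 kb of Clec4d, 9 other genes had at least 100 UMIs, of which Slc2a3, a glucose transporter, was past 2-fold lower, with 1307 and 326 UMIs and a log2 ratio of −1.30 (−1.48 to −1.13), beside Clec4e. The same Slc2a3 was within 500 kb of all 6 Clec4 genes, and Dppa3, with 142 and 18 UMIs, within 500 kb of Clec4a1, Clec4a2 and Clec4a3. Near Clec12a, Clec12b was lower and BC035044, with 45 and 95 UMIs, and Klra17, with 120 and 445 UMIs and a log2 ratio of 2.59, were higher, 3 of 11 genes. Near Olr1 these were Clec12b and Klra17, 2 of 10 genes, and near Clec2d they were Klrb1b, Clec12b and BC035044, 3 of 11. Of the 40 genes near Clec10a, 0 were past 2-fold, beside 4.16% of all genes. Where the deleted Clec7a lies relative to these genes was not examined. Differences that come with its locus and effects of losing Dectin-1 cannot be told apart in these libraries.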

How the data were processed

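Polyp-infiltrating CD11b+ and CD11c+ cells of 1 WT and 1 Clec7a-/- library were analysed, made with the SeekOne MM 3' kit per the labels' protocol, whereas the labels' description names 10x Genomics. The values deposited by the authors are whole UMI counts for every gene and barcode, not normalized, and the submitters' processing notes name Cell Ranger 2.1.1 and mm10. Clec7a was not analysed here. The 10 genes, the gene lists, the markers and the settings were chosen with earlier results of these data known. The genes named were the 10 receptors, the other C-type lectin genes and signalling partners past 2-fold with Fcer1g, Syk, Card9 and Ptpn6, the 3 genes most like each receptor, and the neighbours past 2-fold. Listed genes named within a class (Clec12b, Klrb1b, Clec9a, Klrd1, Fcer1g and Ly75) and the promoters shown were chosen after their values were seen.

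The study's limits on cells were used (detected genes from 200 to 4000, mitochondrial UMIs up to 5%). Both libraries were clustered together with R 4.3.3 and Seurat 5.3.0 (LogNormalize to 10000, 2000 variable features without the 10 genes and the listed genes, 20 components, resolution 0.8, the lowest with at least 15 clusters). Doublets were left in. Scrublet, run in scanpy 1.11.5, called only 3 WT and 7 Clec7a-/- cells and was taken as not having worked. UMIs were summed by class and library. Levels have exact Poisson, shares exact binomial (Clopper-Pearson) and ratios exact conditional intervals, at 95%. A gene was counted past 2-fold with at least 100 UMIs over both libraries, and 0 UMIs allow a level of up to 3 counts. Thinning used random seed 1. The ratio was tested on simulated Poisson counts without spread among cells, mice or libraries, so that test checks the calculation alone.

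Positions came from GENCODE M21, which held 32158 of the 32285 gene identifiers, and promoters from RefSeq (GRCm38.p6). Python 3.11.15 with numpy 2.4.6, scipy 1.17.1, pandas 2.3.3 and matplotlib 3.10.9 was used, and edgeR 4.0.16 for TMM scaling. The alternatives were other limits on cells, doublet removal, clustering settings, scaling, weights, UMI minimum, fold limit and thinning.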

Additional observations from a re-analysis of the deposited data

How the results depend on the processing

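No paired analysis was possible because each genotype has 1 library. For the same reason no replicate could be left out. Over all cells, 1 receptor was past 2-fold. The number was 2, Clec4d and Clec4e, with at most 10% mitochondrial UMIs, with 500 to 6000 detected genes, without a filter on cells and with TMM scaling. It was 3, with Olr1, at a limit of 1.5-fold, and 0 with a mean over cells or, chosen after seeing the data, with the WT mix of classes. Removing Scrublet calls, the top 5% by Scrublet score or the barcodes found in both libraries, the last 2 chosen after seeing the data, left 1. The Scrublet calls were only 3 WT and 7 Clec7a-/- cells and 17 barcodes were shared, so these removals could change little. A minimum of 20 UMIs could not change the number, because all 10 receptors had at least 100 UMIs over all cells. Within classes, 3 pairs of a receptor and a class were past 2-fold. There were 13 with a minimum of 20 UMIs, 11 at a limit of 1.5-fold and 0 without the top 5% by Scrublet score. With a resolution lower by 0.2 there was 1, Clec4d in cluster 8, and no cluster was given to the mature DC-like class. With at most 10% mitochondrial UMIs there was 1, Clec4d in type 1 DC-like cells. Neither of these pairs is among the 3. The other 7 alternatives gave between 2 and 4. With 30 components and with reciprocal PCA these took in Clec4a3 in transitional-like cells. With TMM scaling they took in Clec4d in granule-poor neutrophil-like cells. Clec4n in mature DC-like cells, past 2-fold lower at −1.07, turned to 0.078 with at most 10% mitochondrial UMIs and to 0.12 without the top 5% by Scrublet score, and the cause was not tested. For the class in which a receptor was highest, classes were ranked by the mean of the levels of both libraries. By this mean it stayed the same for 9 or 10 of the 10 receptors in each of the 8 alternatives. The exception was Clec4a3, which moved to transitional-like cells. With each library taken alone, the highest class differed between WT and Clec7a-/- cells for Clec4e, Clec4a2, Olr1 and Clec2d. In cells thinned to 1000 UMIs the share was lower beyond counting error for 3 receptors, and without thinning for 5, Clec4a2 and Olr1 added. The same count over all genes was not made. Of 40 ratios within classes, 26 kept their sign in the alternatives that could be run, and 7 of 10 did over all cells. Depth limits Clec10a and Olr1 most, which had fewer than 100 UMIs in every class.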

Other observations

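The filter on cells left out 771 WT and 1081 Clec7a-/- barcodes, which the main comparisons above do not use. The alternatives with wider limits on cells or without a filter take in some or all of them. In them Clec4e was at 250.7 (235 to 268) CPM in WT, with 899 UMIs, and at 126 (115 to 137) CPM in the Clec7a-/- library, with 534 UMIs. Clec4d was at 394 (374 to 415) and 217 (203 to 231) CPM, and Clec4n at 556 (532 to 581) and 353 (335 to 371) CPM. Clec12a, the receptor that was higher over the kept cells of the Clec7a-/- library, was at 24.0 (19.2 to 29.6) and 39.5 (33.8 to 46.0) CPM. Clec4a2 and Clec10a, with no difference beyond counting error over the kept cells, were lower here. Clec4a2 was at 95.7 (85.8 to 106) and 74.1 (66.2 to 82.8) CPM, and Clec10a at 16.7 (12.8 to 21.5) and 6.59 (4.38 to 9.52) CPM. For Clec4a1, Clec4a3, Olr1 and Clec2d the intervals overlapped. The same was not counted over all genes.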
